A study of Mus musculus with 18 samples.

Results

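The insulin-like growth factor (IGF) family of the mouse prostate was followed through 10 genes, which were the rows of the listed symbols out of 55469 rows in the deposited tables. They were the ligand Igf1, the receptors Igf1r, Insr and Igf2r, and the binding proteins Igfbp2 to Igfbp7. The genes were taken by name, and all 10 genes passed the filter on low values in every comparison. Total RNA of ventral and lateral lobes of male mice of the strain labelled C56NL/6N was sequenced, in 6 groups of 3 libraries. The groups were wild-type (WT) mice, mice homozygous for the knockout of Elac2 (KO) and mice homozygous for the Elac2 point mutation A537T, each at 10 and at 30 weeks of age. Elac2 encodes the enzyme that trims the 3′ ends of precursor tRNAs. In the KO line exon 8 of Elac2 was deleted by Cre under the probasin promoter, which drives expression in prostate epithelium, whereas the A537T allele was carried in the whole body. Controls were age-matched WT littermates, and the mice used here carried no TRAMP tumour transgene.

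IGF1 and IGF2 are secreted peptides that signal through the receptor tyrosine kinase IGF1R, and through complexes of it with the insulin receptor, to the PI3K, AKT and mTOR pathway and to the MAP kinases. The mannose 6-phosphate receptor IGF2R clears IGF2 from the cell surface and carries lysosomal enzymes, and has no kinase activity. Binding proteins hold the peptides away from their receptor until proteases release them, and in the prostate, where stromal cells make IGF1 and epithelial cells carry IGF1R, they set how much ligand reaches the epithelium.

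Libraries held 6569642 to 11225281 recovered reads, and each family gene had at least 50 reads in every library. The tissue label was checked against 11 genes of prostate luminal epithelium, which took 0.552 to 3.93% of the reads in KO libraries at 10 weeks and 3.74 to 14.9% in all others. Genes of the seminal vesicle, a neighbouring gland that was removed at dissection, took 4.64% of the reads of the WT library 10AF and 1.76% of those of 11AF at 10 weeks, and 6.55 to 10.3% in the KO libraries of that age. At 30 weeks they took 6.32 to 9.17% in 2 KO libraries (4AF and 6AF) and 2 A537T libraries (7AF and 9AF), and at most 0.191% in every other library of both ages. The share of skeletal muscle genes at 10 weeks was 1.63 to 5.65% in WT, 0.0272 to 0.897% in KO and 0.542 to 1.74% in A537T libraries, and it was at most 0.0371% at 30 weeks. In bulk RNA, fewer cells of a type and less RNA per cell cannot be told apart. Elac2 itself had 124, 142 and 166 normalised counts in WT and 119, 111 and 115 in KO libraries at 10 weeks, without overlap, and 150, 153 and 194 in WT and 98.4, 151 and 122 in KO libraries at 30 weeks, where the groups overlapped.

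Per length of exonic sequence, Igfbp5 was the most abundant member, with a median of 61.7 reads per kilobase and 1000000 recovered reads (RPKM) over the 18 libraries and a range from 24.3 to 107. Igfbp7 followed with a median of 36.2, Igfbp2 with 34.8, Igf2r with 27.5 and Igfbp6 with 23.7 RPKM. Igf1r had 10.6, Insr 9.63, Igfbp4 8.60, Igf1 7.36 and Igfbp3 3.16 RPKM. The ranges of neighbours in this order overlapped in every case, so that the order of adjacent genes did not exceed their spread. The steadiest member was Igf2r, whose highest library stood 1.60 times above its lowest in reads per 1000000 recovered reads (RPM), and the most variable was Igfbp2, with a ratio of 13.3.

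**Figure D1:**
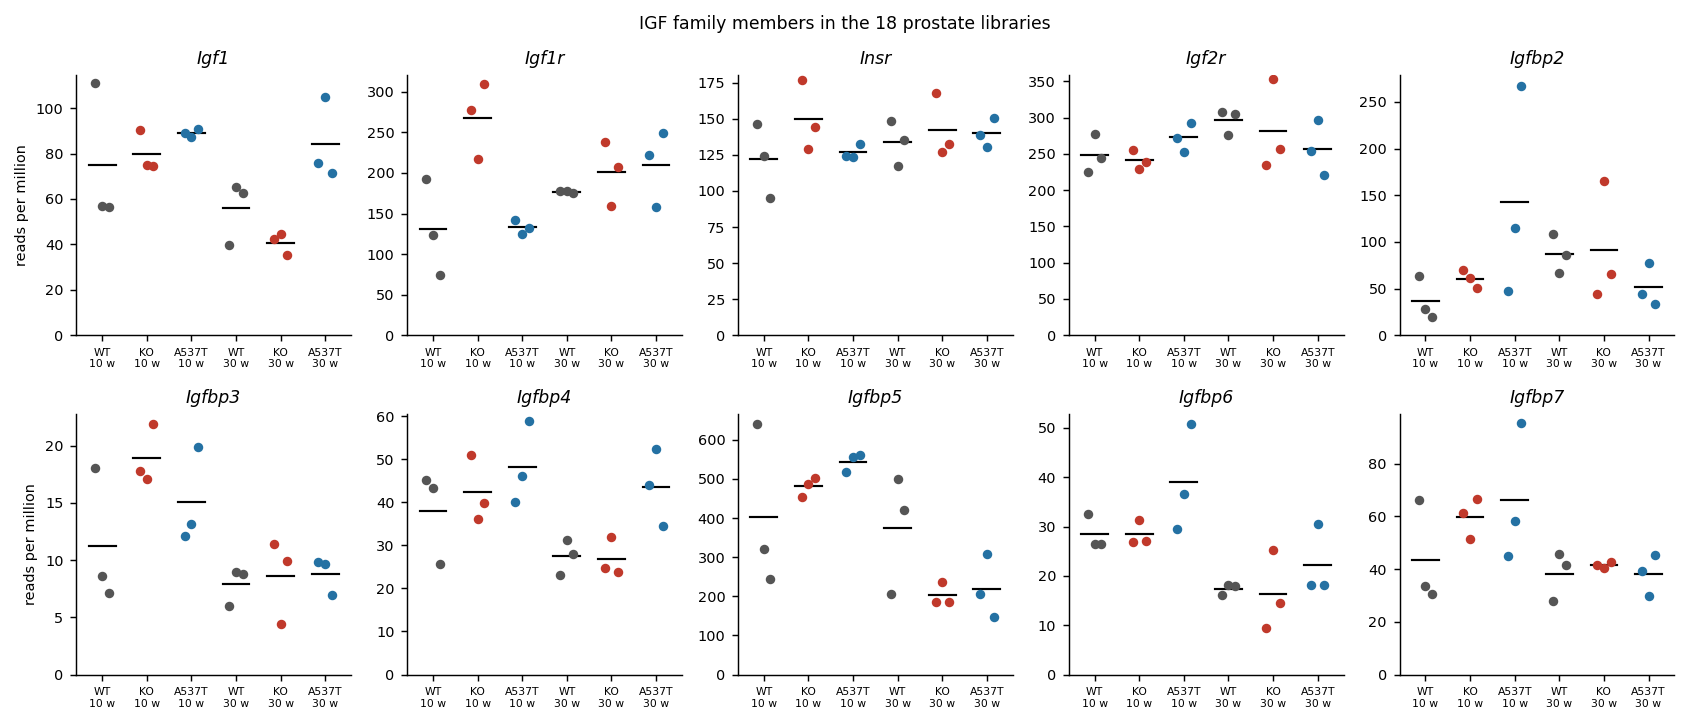
Level of each of the 10 IGF family members in reads per 1000000 recovered reads (RPM, vertical axis, from 0) in the 3 libraries (points) of each genotype and age, with the mean as a bar. Igf1r stood at 217 to 309 RPM in KO libraries at 10 weeks against 74.0 to 193 in WT, and Igfbp2 spread from 47.6 to 267 among A537T libraries of that age.

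Among pairs of members with promoter sequence outside annotated exons, the levels of Igfbp3 and Igfbp7 had the highest Pearson r over the 18 libraries (0.792). For deviations from the group means their r was 0.658, and other pairs of members stood higher. The 250 bases before the start of each gene, from RefSeq on GRCm38.p6, are given here to show what the promoters of this pair share. Both genes lie on the reverse strand, and the sequences are written from 5′ to 3′ along that strand, with GC boxes (GGGCGG on either strand) in capitals.
Igfbp3, chr11:7213924-7214173: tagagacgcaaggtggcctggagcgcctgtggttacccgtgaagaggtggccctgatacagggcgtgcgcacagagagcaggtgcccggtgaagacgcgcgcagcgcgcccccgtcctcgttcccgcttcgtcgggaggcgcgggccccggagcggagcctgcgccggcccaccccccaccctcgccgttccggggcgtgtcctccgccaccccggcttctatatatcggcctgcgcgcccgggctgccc
Igfbp7, chr5:77408046-77408295: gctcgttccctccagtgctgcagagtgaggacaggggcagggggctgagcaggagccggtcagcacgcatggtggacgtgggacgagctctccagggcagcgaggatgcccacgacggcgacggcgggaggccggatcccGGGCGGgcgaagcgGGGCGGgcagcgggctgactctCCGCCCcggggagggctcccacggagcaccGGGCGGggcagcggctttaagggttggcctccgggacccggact
Both windows were rich in G and C, at 73.2% in Igfbp3 and 74.0% in Igfbp7, against a median of 52.4% over 32851 promoters. Igfbp7 held 4 GC boxes and Igfbp3 none, and a GC box was present in 32.7% of all promoters. Neither window held a CCAAT box on either strand, which was present in 33.8% of all promoters. A TATA box was searched only as TATAAA, which was absent from both and present in 12.4%. Other forms were not searched, and the Igfbp3 window reads tatatat near its end. The core of an androgen receptor element, searched as AGAACA, was likewise absent from both and present in 16.1%. Promoters were found for 9 of the 10 members.

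To ask whether the family moved with loss or mutation of Elac2, mutant libraries were set against the WT libraries of the same table on log2(normalised count + 1) with limma. No gene of the genome passed an adjusted p of 0.05 with limma in any of the 4 comparisons, and edgeR on the recovered reads called none either, while 2930, 973, 1616 and 2016 genes had an unadjusted limma p under 0.05 in KO and A537T at 10 weeks and KO and A537T at 30 weeks, in that order. DESeq2 on the recovered reads called 715 (4.74%), 90 (0.595%), 285 (1.93%) and 476 genes (3.22%) in the same order, with 1 member, Igf1r, in the first and 1 member, Igfbp4, in the last. The KO and A537T comparisons of an age share their WT libraries, so their values are given side by side and are not independent. Fold changes are on the log2(count + 1) scale and are printed where they exceeded their standard error (SE).

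In KO prostates at 10 weeks, 1 of the 10 members did not overlap between groups, against 26% of all genes tested, and the same gene was the 1 member with an unadjusted p under 0.05, against 19.4% of all genes. This gene was Igf1r. The median log2 fold change of the members was 0.13, against -0.01 for all genes, with 6 members higher than WT, against 49.4% of all genes. In A537T prostates at 10 weeks no member separated from WT, against 11.9% of all genes, and 1 member, Igfbp2, had an unadjusted p under 0.05, against 6.43%. Here 9 members were higher than WT, against 51.5% of all genes, with a median of 0.32, against 0.01 for all genes. Stromal lists moved with them, as fibroblast genes took a median of 0.19% of the reads in A537T against 0.129% in WT libraries and smooth muscle genes 0.542% against 0.287%, and their part was not tested. With a skeletal muscle score as covariate, Igfbp3, Igfbp4 and Igfbp7 turned negative and Igfbp5 went from 0.45 to 0.057. Muscle genes took 0.542 to 1.74% of the reads in A537T and 1.63 to 5.65% in WT libraries. The score therefore nearly followed genotype, and the 2 can hardly be told apart. In KO prostates at 30 weeks no member separated, against 16.3% of all genes, 1 member, Igfbp5, had an unadjusted p under 0.05, against 11%, and the median was -0.06, against -0.01 for all genes, with 4 members higher than WT, against 49.1% of all genes. In A537T prostates at 30 weeks 3 members separated (Igf1, Igfbp4 and Igf2r), against 18.6% of all genes, 3 had an unadjusted p under 0.05 (Igfbp4, Igfbp2 and Igf2r), against 13.6%, and the median was 0.09, against -0.01 for all genes, with 6 members higher than WT, against 49.3% of all genes. For the difference of the effect between ages, 0 members in KO and 2 in A537T (Igfbp2 and Igfbp5) had an unadjusted p under 0.05, against 12.1% of all genes in either line, and limma called no gene after adjustment.

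**Figure D2:**
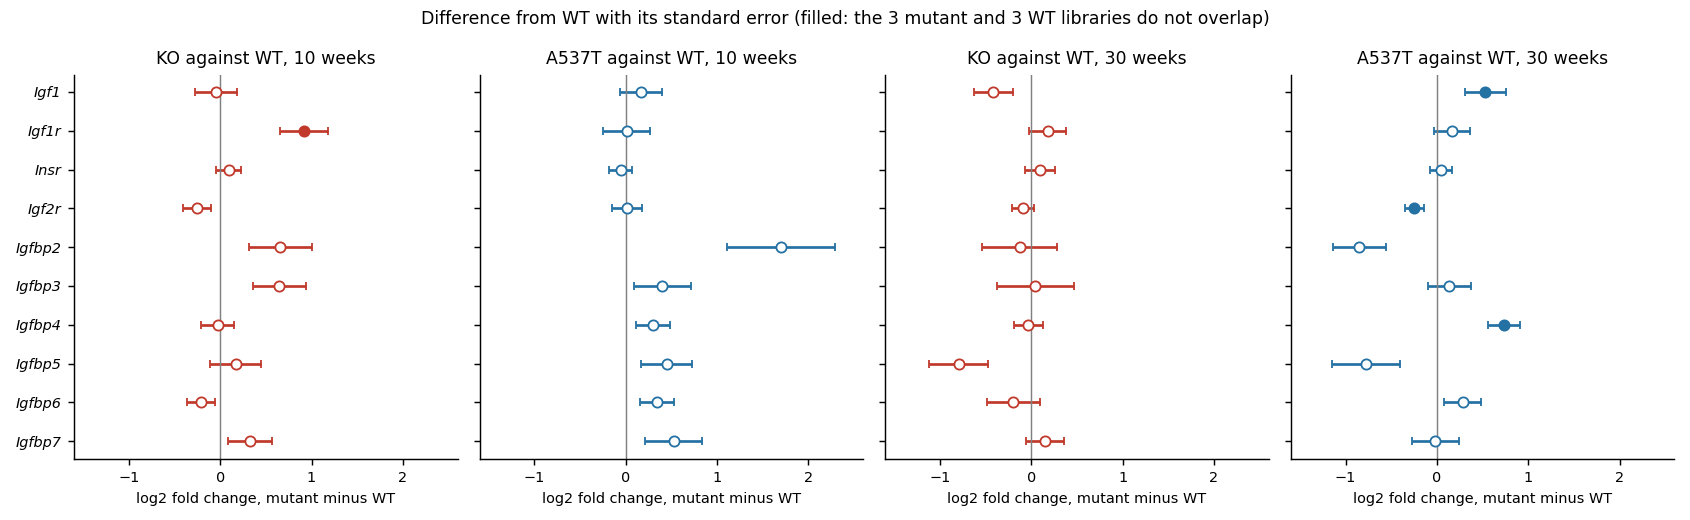
Log2 fold change of each member, mutant minus WT (horizontal axis), with its SE as a bar, in the 4 comparisons, where filled points mark genes whose 3 mutant and 3 WT libraries do not overlap. Igf1r was the filled point in KO at 10 weeks (0.92), and Igf1, Igfbp4 and Igf2r in A537T at 30 weeks (0.53, 0.73 and -0.25).

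The ligand Igf1 differed little between genotypes at 10 weeks, and at 30 weeks it was lower in KO and higher in A537T libraries than in WT, neither past the threshold. In the KO table of 10 weeks it had 889, 486 and 584 normalised counts in WT and 674, 609 and 559 in KO libraries. In the A537T table it had 957, 514 and 620 in WT and 795, 757 and 713 in A537T libraries, so that both mutant groups lay inside the WT range. At 30 weeks the KO table gave 353, 609 and 551 counts in WT and 405, 367 and 335 in KO libraries. The KO values were close together near the lowest WT library, and the log2 fold change was -0.42 ± 0.21 (SE, limma, unadjusted p = 0.0893, adjusted p = 0.51). The A537T table gave 364, 627 and 571 counts in WT and 664, 886 and 666 in A537T libraries. Every A537T library was above every WT library, with a log2 fold change of 0.53 ± 0.23 (SE, limma, unadjusted p = 0.0507, adjusted p = 0.367). The WT library 1AF was the lowest of its group for Igf1 and for 5 of the 6 binding proteins, and without it the A537T value was 0.29, while without 2AF it was 0.68. The difference of the A537T effect between ages was 0.36 ± 0.35 (SE, limma, adjusted p = 0.711).

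The signalling receptor Igf1r showed the one separation of the KO line. Its normalised counts at 10 weeks were 1548, 1058 and 766 in WT and 2066, 1768 and 2324 in KO libraries. All KO libraries were above all WT libraries, with a log2 fold change of 0.92 ± 0.26 (SE, limma, unadjusted p = 0.0098, adjusted p = 0.183). DESeq2 on the recovered reads gave 0.88 with an adjusted p of 0.0421, within a range from 0.0214 to 0.9998 over the alternatives. In A537T libraries of that age the counts were 1270, 1083 and 1037, inside the WT range of 792 to 1621. At 30 weeks Igf1r had 1576, 1661 and 1539 counts in WT and 2268, 1308 and 1964 in KO libraries. In the A537T table it had 1606, 1691 and 1572 in WT and 1946, 1331 and 2328 in A537T libraries. Mutant libraries therefore lay on both sides of a narrow WT group in either line. The difference of the KO effect between ages was -0.74 ± 0.35 (SE, limma, unadjusted p = 0.0587, adjusted p = 0.435).

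Igf1r varied with the seminal vesicle genes in these libraries (Pearson r = 0.548 over the 18 libraries, and 0.794 for deviations from the group means). At 30 weeks the 4 libraries with over 1% of seminal vesicle reads had 207 to 249 RPM of Igf1r, and the 5 libraries below that limit, 1 KO and 1 A537T library among them, had 158 to 178. At 10 weeks the WT library with the most Igf1r, 10AF, was also the one with the most seminal vesicle reads, and every KO library was above 1%. Libraries over and under that limit overlapped at this age, at 124.1 to 309.5 and 73.98 to 142.2 RPM. With a seminal vesicle score as covariate the KO value at 10 weeks was 0.55 (limma, adjusted p = 0.585), and with a skeletal muscle score it was 0.38 (limma, adjusted p = 0.9998). Igf1r also ran against the luminal epithelial list over the 18 libraries (Pearson r = -0.702, and -0.705 for deviations from the group means), which took a median of 2.65% of the reads in KO and 12.7% in WT libraries at 10 weeks. Seminal vesicle shares at 10 weeks were 6.55 to 10.3% in KO and at most 4.64% in WT libraries. Muscle shares were at most 0.897% in KO and at least 1.63% in WT libraries. Both scores thus separated with genotype, and a fit with either score cannot tell the 2 apart. The part of luminal, seminal vesicle or muscle RNA in the KO difference was not tested beyond these values. Leaving out 10AF, Igf1r was 2.26-fold higher in KO (limma, adjusted p = 0.0214), in a fit that called 2886 genes, and leaving out 12AF it was 1.59-fold higher (limma, adjusted p = 0.357).

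Insr, the insulin receptor, differed little between groups. It had 1174, 1059 and 987 counts in WT and 1314, 1052 and 1081 in KO libraries at 10 weeks, and 1111, 1070 and 1040 in A537T libraries against 1235, 1095 and 1024 in WT. At 30 weeks it had 1320, 1099 and 1191 counts in WT, 1594, 1048 and 1253 in KO and, in the other table, 1218, 1103 and 1402 in A537T libraries against 1316, 1094 and 1191 in WT. The groups overlapped in every comparison, and no fold change exceeded its SE. Insr and Igf1r, whose products can join in 1 receptor, varied together over the 18 libraries (Pearson r = 0.817, and 0.782 for deviations from the group means).

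Igf2r, the clearance receptor, was lower in A537T prostates at 30 weeks. It had 2743, 2594 and 2705 counts in WT and 2229, 2506 and 2064 in A537T libraries. The groups did not overlap, and the log2 fold change was -0.25 ± 0.10 (SE, limma, unadjusted p = 0.0483, adjusted p = 0.365). In KO libraries of that age the counts were 2231, 2910 and 2430, around a WT range of 2586 to 2732. At 10 weeks Igf2r had 1803, 2369 and 2531 counts in WT and 1904, 1867 and 1792 in KO libraries, with a log2 fold change of -0.25 ± 0.16 (SE, limma, adjusted p = 0.385), and 2434, 2194 and 2302 in A537T libraries, inside the WT range. The KO value turned to 0.01 when all libraries were scaled to the same total outside muscle and seminal vesicle genes. Igf2r ran against the seminal vesicle genes at 30 weeks. It had 221 to 257 RPM in the libraries of that age with over 1% of seminal vesicle reads and 276 to 353 in the others. Without the former, with 8AF as the only A537T library, the A537T value was -0.10. At 10 weeks the libraries over and under that limit overlapped, at 225 to 278 and 244 to 293 RPM.

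Igfbp2, a binding protein that prefers IGF2, showed the largest fold change of the family and the largest spread. In the A537T table of 10 weeks it had 516, 238 and 208 counts in WT and 426, 992 and 2095 in A537T libraries. The mutant libraries spread widely and the lowest lay inside the WT range, with a log2 fold change of 1.70 ± 0.59 (SE, limma, unadjusted p = 0.0234, adjusted p = 0.746). Without the A537T library 18AF the level was 2.20-fold that of WT and without 16AF 4.89-fold, and the log2 fold change was 0.27 once a skeletal muscle score was added (limma, adjusted p = 0.955). Library 18AF also held the most smooth muscle, fibroblast, endothelial and basal epithelial RNA of the 18, with 0.994, 0.299, 0.0206 and 0.0404% of its reads. In KO libraries of that age Igfbp2 had 521, 504 and 377 counts against 507, 238 and 207 in WT, 0.66 ± 0.34 on the log2 scale (SE, limma, adjusted p = 0.321), which was 1.06 without 10AF and 0.41 without 12AF.

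At 30 weeks Igfbp2 was lower in A537T prostates, with 387, 650 and 309 counts against 964, 623 and 757 in WT. One A537T library, 8AF, lay inside the WT range, and the log2 fold change was -0.85 ± 0.29 (SE, limma, unadjusted p = 0.0206, adjusted p = 0.306). Without 8AF, in which seminal vesicle genes were nearly absent, the value was -1.15 (limma, adjusted p = 0.0222, within a range from 0.0222 to 0.97 over the alternatives), whereas in the libraries below 1% of seminal vesicle reads, a choice made after seeing the data, which keep 8AF and leave out 7AF and 9AF, it was -0.24 (limma, adjusted p = 0.97). Without 9AF it was -0.62. KO libraries of 30 weeks had 417, 1360 and 620 counts against 966, 624 and 756 in WT, with the highest in 5AF, the KO library in which seminal vesicle genes were nearly absent. At that age the 4 libraries with over 1% of seminal vesicle reads had 33.1 to 65.5 RPM of Igfbp2 and the other 5 had 66.7 to 165. The difference of the A537T effect between ages was -2.55 ± 0.74 on the log2 scale (SE, limma, unadjusted p = 0.0051, adjusted p = 0.255). Between ages, WT libraries had 20.0 to 63.2 RPM at 10 weeks and 66.7 to 109 at 30 weeks, a description across tables.

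Igfbp3, the main carrier of IGF1 in serum, was the least abundant member. In the KO table of 10 weeks it had 145, 73.3 and 73.4 counts in WT and 132, 139 and 165 in KO libraries, with a log2 fold change of 0.65 ± 0.29 (SE, limma, unadjusted p = 0.0621, adjusted p = 0.274). The KO libraries were close to the WT library 10AF and above the other two, and the value was 0.97 without 10AF and 0.48 without 11AF. The A537T libraries had 109, 114 and 156 counts against 150, 74.4 and 74.6 in WT, with a log2 fold change of 0.40 ± 0.32 (SE, limma, adjusted p = 0.781), which turned to -0.24 once a skeletal muscle score was added. At 30 weeks the counts were 53.1 to 84.1 in WT, 36.7 to 108 in KO and 64.6 to 86.4 in A537T libraries, and the groups overlapped.

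Igfbp4, an inhibitor of IGF action that the protease pregnancy-associated plasma protein A cleaves, gave the clearest separation of the A537T line. At 30 weeks it had 192, 272 and 230 counts in WT and 386, 443 and 322 in A537T libraries. All A537T libraries were above all WT libraries, with a log2 fold change of 0.73 ± 0.18 (SE, limma, unadjusted p = 0.0041, adjusted p = 0.25). DESeq2 on the recovered reads gave 0.74 with an adjusted p of 0.0235, within a range from 0.0235 to 0.728 over the alternatives. The value ran from 0.60 to 0.85 when single libraries were left out and was 0.95 in the libraries below 1% of seminal vesicle reads, where the A537T arm is the single library 8AF. In KO libraries of that age Igfbp4 had 235, 263 and 224 counts against 206, 293 and 246 in WT. At 10 weeks it had 380, 295 and 298 counts in KO libraries against 362, 370 and 265 in WT, and 359, 399 and 461 in A537T libraries against 366, 367 and 264 in WT, the latter with a log2 fold change of 0.30 ± 0.18 (SE, limma, adjusted p = 0.762) that turned to -0.05 once a skeletal muscle score was added. The difference of the A537T effect between ages was 0.43 ± 0.26 (SE, limma, adjusted p = 0.543).

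Igf1 and Igfbp4 were both highest in the A537T library 8AF among the libraries of 30 weeks, and their levels had the highest Pearson r of any pair of members over the 18 libraries (0.857). For deviations from the group means their r was 0.66, below that of Igf1 and Igfbp5 (0.907) and of Igfbp2 and Igfbp6 (0.839), among others. The fibroblast list, of which all 10 genes were detected in every library, took 0.092 to 0.0962% of the reads in A537T libraries of 30 weeks against 0.0545 to 0.0819% in WT and 0.074 to 0.0753% in KO libraries. The macrophage list, 8 genes, took 0.0171 to 0.0377% in A537T libraries against 0.0107 to 0.0136% in WT and 0.0115 to 0.0276% in KO. The plasma and B cell list, 7 genes, took 0.00988 to 0.0348% in A537T libraries against 0.00279 to 0.00376% in WT and 0.00335 to 0.00419% in KO. Their part in the higher Igf1 and Igfbp4 was not tested.

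Igfbp5, which binds extracellular matrix and is abundant in the stroma of many tissues, was lower in both mutant lines at 30 weeks without separating from WT. The KO table gave 1817, 4678 and 3696 counts in WT and 1764, 1939 and 1762 in KO libraries, a log2 fold change of -0.79 ± 0.32 (SE, limma, unadjusted p = 0.0429, adjusted p = 0.44). The A537T table gave 1827, 4699 and 3725 in WT and 1808, 2594 and 1363 in A537T libraries, a log2 fold change of -0.77 ± 0.38 (SE, limma, unadjusted p = 0.0773, adjusted p = 0.409). In both tables the WT library 1AF was as low as the mutants, and without it the values were -1.19 and -1.17. Without the highest WT library, 2AF, they were -0.51 and -0.49. In the libraries below 1% of seminal vesicle reads the KO value was -0.70 and the A537T value -0.29, each from 1 mutant library. At 10 weeks Igfbp5 had 3371 to 3963 counts in KO libraries within a WT range of 2526 to 5143, and 4624, 4816 and 4399 in A537T libraries against 5341, 2794 and 2585 in WT, 0.45 ± 0.28 on the log2 scale (SE, limma, adjusted p = 0.766). The difference of the effect between ages was -0.96 ± 0.46 in KO (SE, limma, unadjusted p = 0.0619, adjusted p = 0.441) and -1.22 ± 0.51 in A537T (SE, limma, unadjusted p = 0.0362, adjusted p = 0.378). In RPM, KO and A537T libraries had 453 to 560 at 10 weeks and 146 to 307 at 30 weeks, whereas WT libraries of both ages covered 205 to 642, a description across tables.

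Igfbp5 and its neighbour Igfbp2 lie tail to tail on chromosome 1 of GRCm38, Igfbp2 from 72824503 to 72852474 on the forward strand and Igfbp5 from 72857932 to 72874884 on the reverse strand, 5457 bases apart. Their levels had a Pearson r of 0.322 over the 18 libraries and of 0.423 for deviations from the group means.

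Igfbp6, which binds IGF2 with preference, had 261, 225 and 273 counts in WT and 199, 255 and 203 in KO libraries at 10 weeks, a log2 fold change of -0.21 ± 0.16 (SE, limma, adjusted p = 0.463) that turned to 0.00 with scaling to the same total, to 0.06 with that scaling outside muscle and seminal vesicle genes, and to 0.12 with a skeletal muscle score. In A537T libraries it had 263, 318 and 399 counts against 265, 224 and 274 in WT (0.34 ± 0.19, SE, limma, adjusted p = 0.749). At 30 weeks it had 143, 170 and 158 counts in WT and 89.8, 208 and 137 in KO libraries, and 159, 257 and 170 in A537T libraries against 143, 170 and 158 in WT (0.28 ± 0.20, SE, limma, adjusted p = 0.549). In that comparison 8AF decided the value, which was 0.07 without it. RPM of Igfbp6 were lower at 30 than at 10 weeks without overlap in WT (16.1 to 18.2 against 26.4 to 32.6) and KO libraries (9.44 to 25.2 against 26.8 to 31.3), and overlapped in A537T libraries. In KO libraries the same held for Igf1, Igfbp3, Igfbp4, Igfbp5 and Igfbp7. These are descriptions across tables, and the share of all genes that did so was not computed. The fibroblast list of WT libraries also went from 0.115 to 0.181% at 10 weeks to 0.0545 to 0.0819% at 30 weeks, and its part was not tested.

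Igfbp7, a protein of vessels and smooth muscle that binds IGFs weakly, had 531, 287 and 318 counts in WT and 456, 418 and 501 in KO libraries at 10 weeks (0.32 ± 0.24, SE, limma, adjusted p = 0.459), and 401, 505 and 750 in A537T libraries against 547, 290 and 322 in WT (0.52 ± 0.31, SE, limma, adjusted p = 0.755). Once a skeletal muscle score was added, these values turned to -0.03 and -0.15. At 30 weeks the counts were 249 to 426 in WT, 334 to 404 in KO and 251 to 423 in A537T libraries, and no fold change exceeded its SE. Igfbp7 followed the smooth muscle list over the 18 libraries (Pearson r = 0.948, and 0.929 for deviations from the group means), from 28.0 RPM in 1AF, with 0.228% of smooth muscle reads, to 95.5 in 18AF, with 0.994%.

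Other members also varied with stromal lists over the 18 libraries. These libraries differed in depth and in their seminal vesicle and skeletal muscle reads, so that the correlations are descriptions. Igfbp6 followed the fibroblast list (r = 0.839, but 0.439 for deviations from the group means), and Igfbp3 followed the endothelial list (0.837 and 0.768). For deviations from the group means Igfbp6 had r of 0.863 with macrophage genes and -0.693 with seminal vesicle genes. Over all libraries these were 0.448 and -0.07. Igfbp4 and Igf1 followed the fibroblast list at 0.777 and 0.735. An epithelial list varied with binding proteins as well. Against basal epithelial genes r was 0.868 for Igfbp7 and 0.773 for Igfbp3, and 0.768 and 0.66 for deviations from the group means. Against fibroblast genes the receptors had r of -0.14 for Igf1r, -0.05 for Insr and -0.29 for Igf2r, and 0.371, 0.299 and 0.0016 for deviations from the group means. Against smooth muscle genes these deviations had r of 0.688 for Igf1r, 0.569 for Insr and -0.416 for Igf2r. Igf2r and the seminal vesicle list had r = -0.757.

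**Figure D3:**
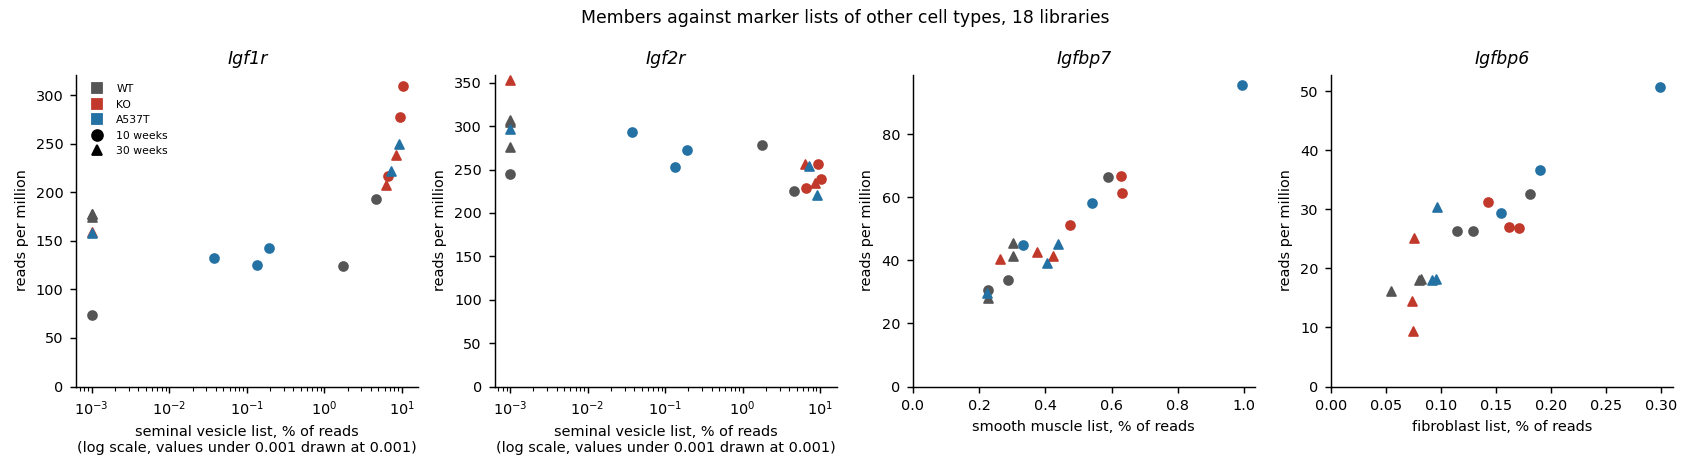
RPM of Igf1r, Igf2r, Igfbp7 and Igfbp6 (vertical axes, from 0) against the percentage of reads in a marker list of another cell type (horizontal axes, log scale for the seminal vesicle list) in the 18 libraries, coloured by genotype, with circles for 10 and triangles for 30 weeks. Igf1r was highest and Igf2r lowest in libraries rich in seminal vesicle reads, and Igfbp7 was higher where the smooth muscle list was higher, up to library 18AF.

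Outside the family, the genes whose levels were most like those of a member over the 18 libraries, among 9360 genes with a mean of at least 50 reads, were B4galt4 (r = 0.97) and Rcn1 (0.968) for Igf1r, and Ppp1r9a (0.97) for Igf2r. For Igfbp7 they were Postn, the matrix protein periostin, and Sparcl1 (both 0.952), for Igfbp4 Gsn (0.917), for Igf1 Gas7 (0.905) and for Insr Stk38 (0.908). Igfbp2 was most like Dstn (0.914), Igfbp3 like Fkbp1a (0.943), Igfbp5 like Dnaja4 (0.952) and Igfbp6 like Medag (0.92).

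The other genes of the pathway were read from a list of 69, of which 55 to 57 passed the filter in a comparison, and none passed an adjusted p of 0.05 with limma. The second ligand, Igf2, was scarce, at 9.65 to 105 normalised counts, without separation in any comparison. Igfbp1, a binding protein of the liver, was at 0 in all libraries, which allows up to 3 reads in each, and Igfals, the partner of Igfbp3 in serum, had 3.96 to 37.7 counts. In KO at 10 weeks 10 of 56 pathway genes had an unadjusted p under 0.05 without overlap, against 17.2% of all genes, and in A537T at 10 weeks 3 of 57, against 5.14%. At 30 weeks there were 9 of 55 in KO, against 9.18%, and 13 of 55 in A537T, against 11.2%. The median log2 fold changes of the list, 0.11, 0.11, -0.08 and -0.08, stood against -0.01, 0.01, -0.01 and -0.01 for all genes.

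Pappa2, a protease that cleaves Igfbp3 and Igfbp5, had the smallest unadjusted p of the list in both lines at 30 weeks. It had 1417, 1032 and 1048 counts in WT and 552, 768 and 796 in KO libraries (-0.73 ± 0.19, SE, limma, unadjusted p = 0.0061, adjusted p = 0.386), and 1444, 1051 and 1071 in WT and 631, 636 and 555 in A537T libraries (-0.95 ± 0.15, SE, limma, unadjusted p = 0.0003, adjusted p = 0.153). Every mutant library was below every WT library. In each line a single mutant library had nearly no seminal vesicle reads (768 counts in KO and 636 in A537T). The part of seminal vesicle RNA in the Pappa2 difference was not tested. At 10 weeks Pappa2 overlapped between groups, at means of 361 in WT and 279 in KO, and of 380 in WT and 483 in A537T. Pappa, the gene of pregnancy-associated plasma protein A, was higher than WT without overlap in both lines at 30 weeks. Groups did not overlap for 16.3% of all genes in KO and 18.6% in A537T at that age. Pappa had 95.9, 79.3 and 86.1 counts in KO libraries against 55.5, 71.4 and 66.3 in WT (limma, unadjusted p = 0.0429, adjusted p = 0.44). In A537T libraries it had 79.4, 73.3 and 80.0 against 55.3, 71.1 and 66.3 in WT (limma, unadjusted p = 0.155, adjusted p = 0.499).

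Among the signalling genes of 30 weeks, Irs1, an adaptor of both receptors, averaged 1421 counts in WT and 1005 in KO, and 1419 and 894 in the A537T table, without overlap. Gsk3b, a kinase that AKT inhibits, averaged 1151 and 895 in the KO and 1124 and 864 in the A537T table, and Tsc2, a brake on mTOR, 870 and 719, and 933 and 664, each without overlap. Jak2, the kinase of the growth hormone receptor, averaged 460 in KO against 335 in WT, and Irs2 176 against 128, without overlap. In A537T prostates Arrb1, an arrestin that binds IGF1R, averaged 1333 against 903, whereas Ctsd, a lysosomal protease that IGF2R carries, averaged 3326 against 4467 and Eif4ebp1, a target of mTOR, 599 against 951, all without overlap. In the KO library 5AF and the A537T library 8AF, seminal vesicle genes were nearly absent. These libraries were the mutants nearest WT for Irs1 (1218 and 1210 counts), Gsk3b (964 and 948) and Tsc2 (762 and 792). The same held for Jak2 in 5AF (396.5) and for Arrb1 (1159) and Eif4ebp1 (774) in 8AF. It did not hold for Irs2 in 5AF (170) or Ctsd in 8AF (3291). The part of seminal vesicle RNA was not tested.

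At 10 weeks the KO libraries differed from WT without overlap in Trib3, an inhibitor of AKT (means of 31.2 against 12.9), Insig1 (253 against 462), Socs2, a feedback inhibitor of growth hormone signalling (161 against 88.1), Foxo4 (203 against 290), Ghr, the growth hormone receptor (263 against 560), and Arrb1 (1502 against 835). The A537T libraries of that age differed without overlap in Stat5b (418 against 745), Foxo4 (232 against 303) and Jak2 (331 against 416). None passed adjustment, at an adjusted p of 0.183 for each named KO gene and 0.746 for each A537T gene (limma). Genes meeting the rule, 10 of 56 in KO and 3 of 57 in A537T, were about as frequent as among all genes (17.2 and 5.14%). The list as a whole thus did not stand out at 10 weeks. Arrb1 had 1094, 880 and 532 counts in the WT libraries 10AF, 11AF and 12AF, the order of their seminal vesicle reads. Socs2 followed the same order (117, 76.6 and 70.4). Ghr (439, 514 and 726) and Insig1 (333, 484 and 568) ran in the reverse order, which was that of the skeletal muscle reads. Trib3 and Foxo4 followed neither order. The part of seminal vesicle or muscle RNA in these differences was not tested.

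**Figure D4:**
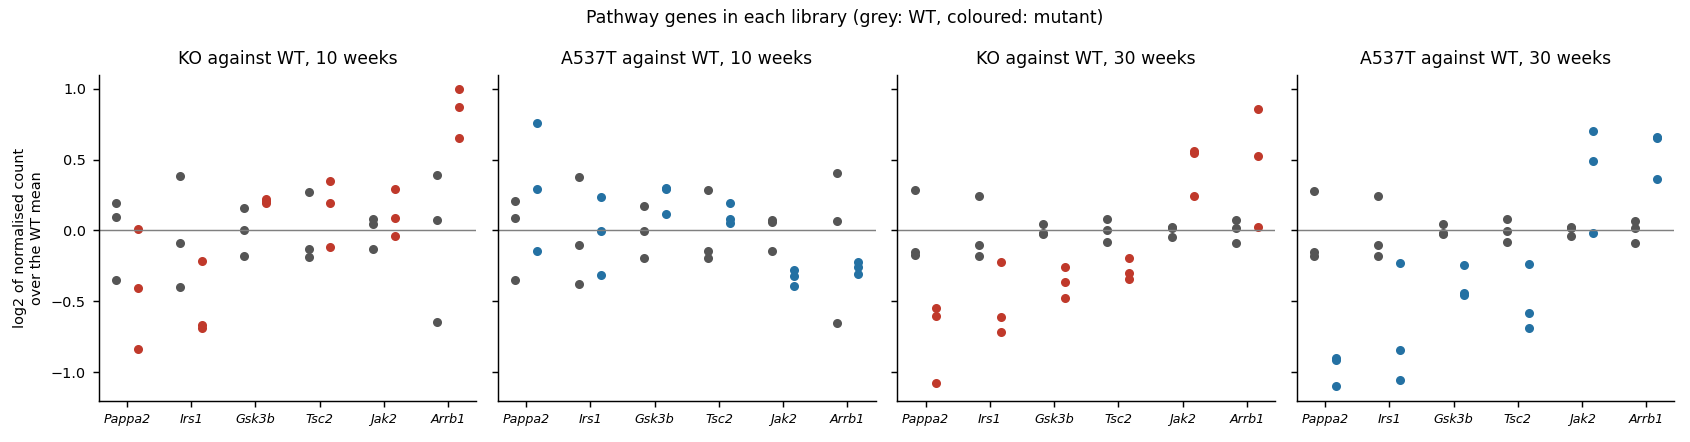
Normalised count of 6 pathway genes in each library, as log2 of its ratio to the WT mean of the same table (vertical axis), for WT (grey) and mutant libraries (coloured) in the 4 comparisons. Pappa2, Irs1, Gsk3b and Tsc2 lay below all WT libraries in both mutant lines at 30 weeks, and at 10 weeks each of them overlapped WT in both lines except Gsk3b in KO, where every library was above WT (974 to 996 against 752 to 953).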

How the data were processed

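Libraries were processed by the authors with Trim Galore 0.4.1, cutadapt 1.18, STAR 2.7.3a, Salmon and DESeq2 1.26 on GRCm38.p6 with nuclear mitochondrial sequence masked. The deposited signal values are gene counts that the authors scaled by 1 size factor per library, separately in each of 4 tables of 6 libraries. Columns were assigned to groups through the line and age of their table, and those present in both tables of an age were taken as WT. The authors' tables of fold changes and p-values were not used. Whole reads were recovered (at least 99.9% of values within 0.02 of a multiple of 1 read), but for WT libraries they differed between tables in 20.3 to 24.3% of rows. Such reads were used for RPM, RPKM (GENCODE vM21 exons), edgeR 4.0.16 and DESeq2 1.42.0. Genes with a mean of at least 10 were tested on log2(value + 1) with limma 3.58.1 in R 4.3.3 without a replicate block, adjusted over all genes tested (Benjamini-Hochberg, threshold 0.05). Differences between ages were tested on 12 libraries. p-values measure the spread between 3 libraries per group, each from 1 mouse. Pathway genes are named where the unadjusted p was under 0.05 without overlap, at most 6 a comparison by smallest p, and likeness was ranked by Pearson r of log2 levels. Igf2, Igfbp1, Igfals, Pappa2 and Gsk3b at 10 weeks, Pappa at 30 weeks and Irs1 in A537T at 30 weeks fall outside this rule. Members and lists were chosen with earlier results of these data known. The fit was tested on simulated data, drawn for each gene on its own around the real means. These held no differences between libraries in seminal vesicle or muscle RNA, so they do not show how the fit behaves under such differences.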

Additional observations from a re-analysis of the deposited data

Results flagged for a closer look

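The effect of A537T on Igfbp2 differed between ages by -2.55 on the log2 scale, and that on Igfbp5 by -1.22. Both were flagged, out of all 10 members in both lines, because every A537T library was above the WT mean at 10 weeks and below it at 30 weeks. That pattern is the rule of choice and no separate result. The difference itself had an adjusted p of 0.255 for Igfbp2 and 0.378 for Igfbp5 with limma, so neither passed the threshold.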

How the results depend on the processing

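No paired analysis was possible because the columns carry no replicate number. Over 31 member values with a fold change above its SE, 532 values were computed under alternatives, of which 516 kept their direction and their side of the threshold, 8 turned and 8 passed it, 6 of these with a single library left out. Of the turned values, Igfbp6 in KO at 10 weeks went to 0.00104 with scaling to the same total, 0.057 with that scaling outside muscle and seminal vesicle genes (where Igf2r went to 0.014) and 0.12 with a skeletal muscle score, which also turned Igfbp7 to -0.028, and in A537T at 10 weeks Igfbp3 to -0.24, Igfbp4 to -0.051 and Igfbp7 to -0.15. The cause was not tested. Muscle shares of WT libraries at 10 weeks (1.63 to 5.65%) did not overlap those of KO (0.0272 to 0.897%) and hardly overlapped those of A537T (0.542 to 1.74%). Values with this score therefore cannot tell muscle RNA from genotype in KO, and hardly in A537T. Scaling to the same total gave all genes at 10 weeks a median of 0.20 in KO (otherwise -0.0061) and 0.15 in A537T (otherwise 0.011), and a median difference between ages of -0.19 (otherwise 0.031) and -0.12 (otherwise -0.0046).

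The count of genes called, 0 throughout, became 715, 90, 285 and 476 with DESeq2 (KO and A537T at 10 weeks, then at 30 weeks), 1 without a mean trend in KO and 2 in A537T at 10 weeks, 2 in A537T at 10 weeks with a minimum mean count of 1, and 3 in A537T at 30 weeks with a seminal vesicle score. Leaving out single libraries gave 0 to 2886 genes in KO at 10 weeks (highest without 10AF, with 6 members, and 185 without 14AF), 0 to 50 in A537T at 10 weeks (without 10AF), 0 to 944 in KO at 30 weeks (without 5AF) and 0 to 1224 in A537T at 30 weeks (without 8AF, with 1 member), and 0 to 30 and 0 to 382 for the differences between ages in KO (highest without 14AF) and A537T (without 8AF). In an alternative chosen after seeing the data, libraries with at least 1% of seminal vesicle reads were left out, which left 1 library in an arm, assumed to vary like the others, and called 569 genes in A537T at 10 weeks, 0 in KO and 1 in A537T at 30 weeks, none of them a member. Depth was at least 6569642 reads in each library, and each member had at least 50 reads in every library; Igfbp3, with the fewest, is read least precisely.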
